A study of Caenorhabditis elegans with 2 samples.

Results

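Genes for small nuclear RNAs (snRNAs) were examined in a chromatin immunoprecipitation and sequencing (ChIP-seq) study of PES-1, a forkhead transcription factor, in early Caenorhabditis elegans embryos. The genes were all those of biotype snRNA on the 6 nuclear chromosomes in Ensembl's annotation of WBcel235, the assembly also called ce11, without the 30 spliced leader genes. This gave 99 genes of 46890 nuclear genes of all biotypes. The study holds 1 group of 2 biological replicates of strain RW12239, which carries the allele st12239[pes-1::TY1::EGFP::3xFLAG] on chromosome IV, so that a tag with green fluorescent protein is inserted into the endogenous pes-1 gene by CRISPR. Whole embryos were collected 1 hour after egg bleaching and their chromatin was broken by sonication, and an antibody against the fluorescent protein is named in the sample descriptions, while the antibody field names pes-1. There is no second condition and no untagged group, so the data show where the tagged protein was recovered and how far the replicates share it, and no test between conditions was possible. Whole embryos mix many cell types, and the lists do not show which cells a peak comes from. Read depths were not analysed here.

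The snRNAs are the RNA parts of the spliceosome. U1 pairs with the start of an intron, U2 pairs with the branch point, and U4, U5 and U6 join as a unit in which U4 holds U6 until U6 enters the catalytic centre. In animals U1, U2, U4 and U5 genes are transcribed by RNA polymerase II and U6 genes by RNA polymerase III, although the promoters of both kinds are recognised by the same snRNA activating complex, SNAPc. SmY RNAs are small RNAs of nematodes associated with trans-splicing.

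The annotation calls every member a small nuclear RNA and does not give its class, so members were grouped by sequence. Genes with at least 75% identity over their whole length were linked, and a group took its name from short letters known for each spliceosomal RNA that most of its genes hold. By this rule 24 genes were U6-type (ACAGAGA, held by 22), 13 were U1-type (ACTTACC, held by 12), 19 were U2-type (GTAGTAT, held by 18), 5 were U4-type (GCTTTGC, held by 5) and 12 were U5-type (CCTTTTA, held by 11). A further 10 are SmY genes by symbol, and 16 fell in no group. Many members share a symbol, R07E5.16 standing for 14 genes and C47F8.9 for 7, so genes are named here by their transcript identifiers. The most frequent U6-type sequence has 14 identical annotated copies. Sequences shown come from the RefSeq copy of the ce11 assembly, and the first is the U1-type gene with the strongest summit, sup-6, with the letters that named its group in capitals.
F58G1.10, chrII:12944803-12944967, - strand: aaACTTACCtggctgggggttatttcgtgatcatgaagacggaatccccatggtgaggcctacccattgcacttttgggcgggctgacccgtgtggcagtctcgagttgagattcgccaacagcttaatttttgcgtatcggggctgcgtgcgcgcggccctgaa

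A summit of the conservative list, the deposited peaks that passed the irreproducible discovery rate (IDR) threshold between the replicates, lay within 200 bp of 17 of the 99 snRNA genes (17.2%, 95% Wilson interval 11.0 to 25.8%). Over all nuclear genes the share was 3.62%. These include 15363 piRNA genes, of which 0.104% had a summit and which lower that share. Of the 17 genes, 11 were U6-type, 4 were U1-type, 1 was U2-type and 1 was mir-1831, a microRNA symbol that the annotation lists as an snRNA and that lies within the U1-type gene sup-39. U6-type genes thus had a summit in 11 of 24 cases (45.8%, 27.9 to 64.9%) and U1-type genes in 4 of 13 (30.8%, 12.7 to 57.6%). For U2-type genes the count was 1 of 19 (5.26%, 0.935 to 24.6%). No U4-type, U5-type or SmY gene had one, and these counts of 0 allow shares of up to 43.5%, 24.3% and 27.8% by the Wilson bound. Genes of a family share sequence, so these intervals cover the counting of genes only. The count fell to 9 genes in the thresholded list deposited for replicate 1, where 2.89% of all nuclear genes had a summit, and to 13 in that for replicate 2, where 3.02% had one. What was compared to threshold a single replicate's list is not stated in the file lists. U6-type genes were 6 of those 9 and 8 of those 13. With the optimal list, derived from both replicates, 20 genes had a summit, against 4.17% of all nuclear genes, the additions being Y17G9A.85, R05D7.6 and C52E4.8. At a global IDR of 0.001 the count was 8, against 2.04%, and measured to the 5′ end alone it was again 17, against 2.24%. Among the strongest 5000 peaks of each replicate's ranked list, 21 genes in replicate 1 had a summit against 8.55% of nuclear genes, and 29 in replicate 2 against 8.58%.

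**Figure D1:**
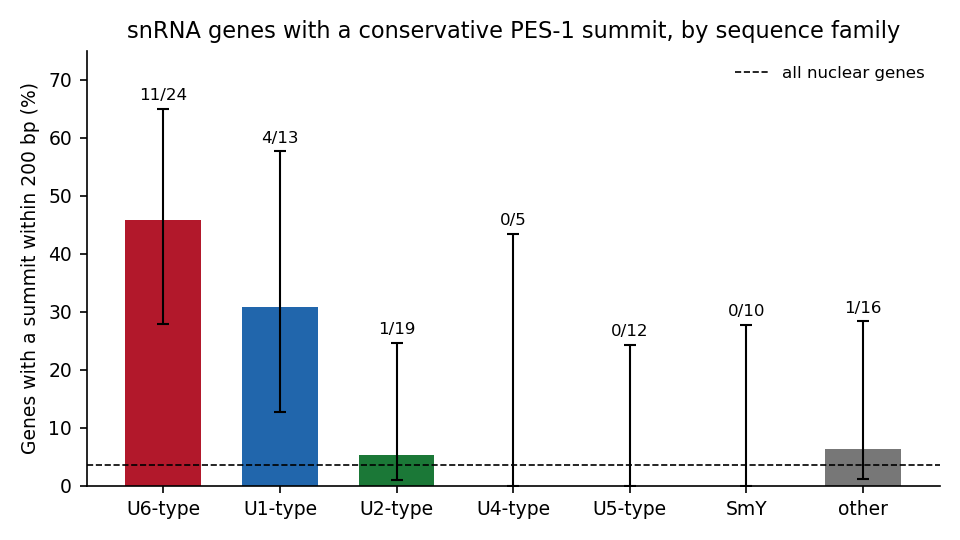
Share of snRNA genes (%) with a conservative PES-1 summit within 200 bp, by sequence family. Bars give the share, error bars the 95% Wilson interval, labels the counts and the dashed line the 3.62% of all nuclear genes. The bars reach 45.8% for U6-type and 30.8% for U1-type genes and are at 0 for U4-type, U5-type and SmY genes.

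U6-type genes on chromosome III carried the strongest summits. W05B2.8 had a deposited signal of 267 in replicate 1 and 352 in replicate 2, and 617 in the conservative list, where its peak ranked 95 of 1452. C28A5.7 had 261 and 314 in the replicates and 596 in the conservative list. R07E5.16 had 144.5 and 188 in the replicates, and F54D8.7 had 178 and 189. In the conservative list the last 2 had 330.01 and 349, against a median of 147 over all 1440 distinct nuclear summits, and these 4 genes were the only U6-type genes among the strongest 25% of them. In all 4 the value was higher in replicate 2 than in replicate 1, and no scaling between the replicates is stated.

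The other 7 U6-type genes with a summit had signals from 93.8 to 172 in the conservative list. F54C8.8, F54C8.9 and F54C8.10 stand near each other in introns of F54C8.6 and had 134, 172 and 93.8. Their values were 53.1, 69.01 and 52.5 in replicate 1 and 82.6, 102 and 57.1 in replicate 2. Thus all 7 snRNA genes on chromosome III had a summit, and all 7 are U6-type. On chromosome IV, Y9C9A.111 had 52.5 and 102 in the replicates, T08B6.62 had 51.6 and 96.3, and K09B11.16 had 58.4 and 57.2, the only one of the 11 with the higher value in replicate 1. K09C6.12 on chromosome V had 63.3 and 88.2. On chromosome IV 3 of 13 U6-type genes had a summit, on chromosome V 1 of 2, and neither the single U6-type gene on chromosome I nor that on chromosome II did.

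**Figure D2:**
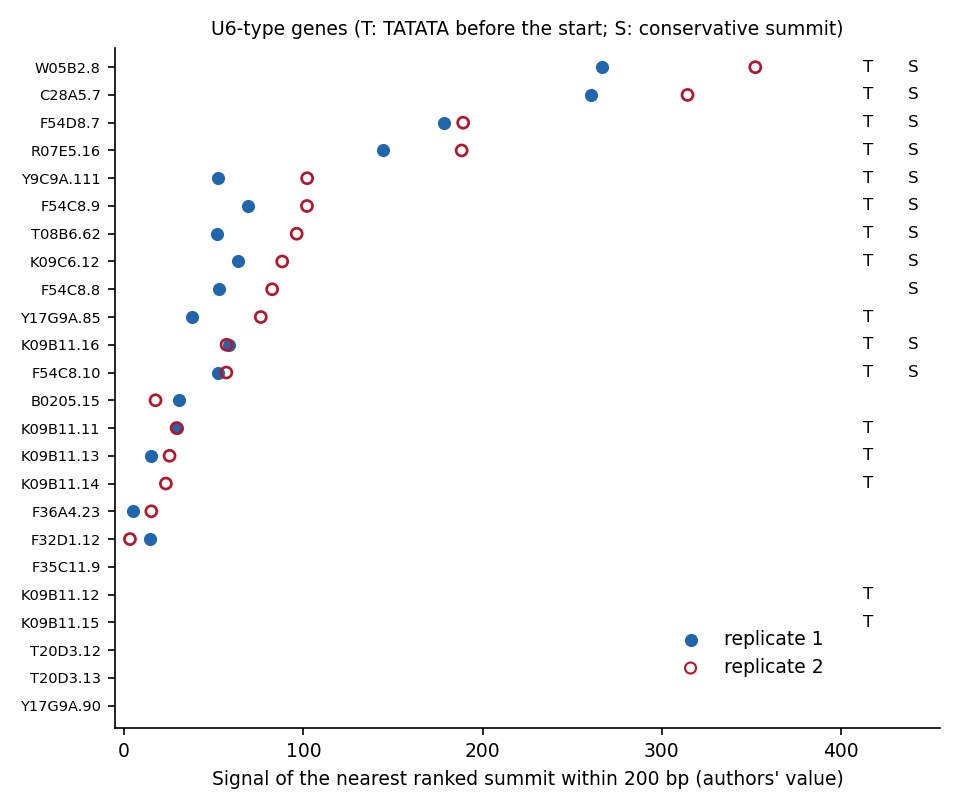
Signal (the authors' value) of the nearest summit within 200 bp in each replicate's ranked list for the 24 U6-type genes. Filled points are replicate 1 and open points replicate 2, T marks TATATA 45 to 15 bp before the start and S a conservative summit, and a gene with no point had no summit in either replicate's ranked list. The 4 strongest genes lie between 144.5 and 352, apart from the rest, and no gene without a conservative summit exceeds 76.3.

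Among U6-type genes, identical copies of the same RNA sequence were found both with and without a summit. Of the 14 genes with the sequence of R07E5.16, 8 had a conservative summit and 6 did not, and 3 of the 14 had no summit in the ranked list of either replicate. Of 3 identical copies of F54D8.7, the gene itself and T08B6.62 had a conservative summit, while Y17G9A.85, with 37.9 and 76.3 in the replicates, had 110.2 in the optimal list and missed the conservative threshold with a -log10 IDR of 1.94. The K09B11 cluster on chromosome IV holds 6 identical genes in introns of mam-3, of which 1 had a conservative summit. In that cluster K09B11.11, K09B11.13 and K09B11.14 had signals of at most 29.3 in either replicate, and K09B11.12 and K09B11.15 had no summit in either replicate's ranked list. Of the 17 U6-type genes with an identical copy, 10 had a conservative summit, and of the 7 without one only F54C8.10 did.

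Identical copies make it uncertain from which gene a read came, and the treatment of such reads is not given in the sources used here. As a measure of this, the share of 50-base words in each gene and its 200 bp flanks that occur once in the nuclear genome was computed. It had a median of 83.6% (56.3 to 87.2%) at the 11 U6-type genes with a summit and 83.2% (54.5 to 100%) at the 13 without. Within the 14 identical genes the medians were 72.4% with and 65.7% without a summit, and in the K09B11 cluster the gene with the summit stood at 56.3%. The part of read placement in these differences was not tested.

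The letters before the gene were compared next. TATATA on the gene's strand, searched 45 to 15 bp before the start, was present at 16 of the 24 U6-type genes, always with its first base at -31 or -30 relative to the first base of the gene. Of these 16 genes, 10 had a conservative summit. Of the 8 without it, 1 had a summit, F54C8.8. Among the 14 genes with the most frequent RNA sequence, 7 of 12 with TATATA had a summit and 1 of 2 without it. All 6 genes of the K09B11 cluster hold TATATA, and 1 of them had a summit. The parts of TATATA and of the RNA sequence in these counts were not tested. In the same place TATATA was present at 2 other snRNA genes, smy-1 and M163.13, and at 2.1% of 46781 other nuclear genes. These letters were chosen after the sequences were seen, and a match is not a bound site. The 80 bp before the start are shown for U6-type genes with a summit (W05B2.8, C28A5.7, F54D8.7, K09B11.16 and F54C8.8) and without one (K09B11.12, Y17G9A.90 and F36A4.23), with TATATA and the word CGGAACCC, described further on, in capitals where present.
W05B2.8, chrIII:10989599-10989678, + strand: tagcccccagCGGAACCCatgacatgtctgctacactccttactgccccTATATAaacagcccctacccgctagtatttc
C28A5.7, chrIII:4426956-4427035, - strand: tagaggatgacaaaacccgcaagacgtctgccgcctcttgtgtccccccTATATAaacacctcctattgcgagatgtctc
F54D8.7, chrIII:5080899-5080978, - strand: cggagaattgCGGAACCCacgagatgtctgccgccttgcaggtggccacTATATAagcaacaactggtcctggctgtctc
K09B11.16, chrIV:13443665-13443744, + strand: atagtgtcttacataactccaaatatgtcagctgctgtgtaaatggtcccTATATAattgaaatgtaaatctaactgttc
F54C8.8, chrIII:9445831-9445910, + strand: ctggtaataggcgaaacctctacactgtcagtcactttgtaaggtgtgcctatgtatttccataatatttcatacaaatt
K09B11.12, chrIV:13439017-13439096, + strand: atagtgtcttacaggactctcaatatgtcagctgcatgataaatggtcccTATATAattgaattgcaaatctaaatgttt
Y17G9A.90, chrIV:4866731-4866810, + strand: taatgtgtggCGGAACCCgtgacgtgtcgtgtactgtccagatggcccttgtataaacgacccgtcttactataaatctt
F36A4.23, chrIV:4239680-4239759, + strand: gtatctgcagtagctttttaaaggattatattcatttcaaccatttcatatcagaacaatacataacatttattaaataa

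Y17G9A.90 holds the same RNA sequence as R07E5.16 and CGGAACCC but not the exact word TATATA. It had no ranked summit in either replicate. Its printed sequence does hold TATAAA in the place where W05B2.8 reads TATATAAA, so a related sequence is present. TATAAA was not counted at that place. F36A4.23, with neither word, had 4.9 in replicate 1 and 15.2 in replicate 2. The other U6-type genes without TATATA were F32D1.12, with 14.7 and 3.3, B0205.15, with 30.7 and 17.6, and F35C11.9, T20D3.12 and T20D3.13, with no ranked summit in either replicate.

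The U1-type genes with a summit were sup-6 and sup-39 on chromosome II, H27M09.6 and, on chromosome V, T27E4.11. The genes sup-6 (F58G1.10) and sup-39 (C15F1.9) are known from worm genetics as suppressors that act on splicing. The gene sup-6 had 94.1 in replicate 1, 183 in replicate 2 and 276 in the conservative list, and sup-39 had 86.8, 143 and 247. H27M09.6 had 74.5, 86.8 and 151, and T27E4.11 had 56.7, 63.9 and 125. Each was higher in replicate 2, and the order of the 4 genes was the same in both replicates. Their values lay within the range of the U6-type genes, below the 4 strongest of these. All 13 U1-type sequences differ from each other, unlike those of U6-type genes, although only 39.4% of the 50-base words around T27E4.11 occur once in the genome, the lowest value among the 17 genes.

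Of the 9 U1-type genes without a conservative summit, F08H9.10 had 14.1 and 72.0 in the replicates, and F40G12.13 had 59.0 in replicate 2 and no ranked summit in replicate 1. T27E4.22 and T27E4.12, which overlap on the same strand over most of their length, shared 1 ranked summit in each replicate, with 26.3 and 55.4. The 80 bp before the start of 2 genes with a summit and of T08G5.11, which had 44.7 in replicate 1 and no ranked summit in replicate 2, are shown with CGGAACCC in capitals. All 3 hold it. Over the whole family it was present at 2 of the 4 genes with a summit, sup-6 and T27E4.11, but not at sup-39 and H27M09.6, and at 6 of the 9 genes without. Of these 6, T27E4.22 and T27E4.12 share 1 site.
F58G1.10, chrII:12944968-12945047, - strand: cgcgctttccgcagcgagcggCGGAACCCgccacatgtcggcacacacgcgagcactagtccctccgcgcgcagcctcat
T27E4.11, chrV:9087022-9087101, - strand: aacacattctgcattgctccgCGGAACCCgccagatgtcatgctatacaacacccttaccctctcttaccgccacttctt
T08G5.11, chrV:14028636-14028715, - strand: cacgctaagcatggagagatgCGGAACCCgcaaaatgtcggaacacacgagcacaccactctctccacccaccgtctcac

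F08G2.10 on chromosome II was the U2-type gene with a conservative summit. Its signal was 51.0 in replicate 1, 54.8 in replicate 2 and 114 in the conservative list, with the -log10 IDR at 2.21 against the threshold of 2. It is 1 of 7 identical copies, and another, R05D7.6, had 49.03 and 47.97 in the replicates and a -log10 IDR of 1.87, just outside the threshold. F08G2.11, with 34.8 and 73.4, had in the conservative ranked list a signal slightly above that of F08G2.10, but a -log10 IDR of 1.63. F11A5.14 had 65.9 in replicate 2 and no ranked summit in replicate 1. At the 18 U2-type genes without a conservative summit, the share of 50-base words that occur once in the genome had a median of 61.3% (0 to 100%), and it was 0 at 2 of them, F15H9.5 and F15H9.6, which had no ranked summit in either replicate.

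Of the U4-type genes, C52E4.8 had a summit in the optimal list with a signal of 134 and in the thresholded list of replicate 2 with 90.6. The nearest ranked summits had 34.5 in replicate 1 and 25.5 in replicate 2, the latter at another position, and the other 4 had no ranked summit in either. Among U5-type genes the highest values were 61.9 at F07C6.5 in replicate 2, against 6.95 in replicate 1, and 58.4 at F38E11.10 in replicate 1, with no ranked summit in replicate 2. At F07C6.5 the values belong to different summits, at -151 in replicate 2 and at +33 in replicate 1. Only the nearest ranked summit is given, so a farther one within 200 bp would not be seen. Of the SmY genes, 4 had a ranked summit in replicate 1 and 1 in replicate 2, with none in both, and the highest value was 33.6 at smy-10. The nearest conservative summit to smy-1 was 285 bp away, and that to K09B11.15, 269 bp away, was the summit of its neighbour K09B11.16. These were the members just beyond the 200 bp limit, while the farthest inside it, mir-1831, was 104 bp away and the next, F08G2.10, 6 bp.

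At the members with a conservative summit, the value was higher in replicate 2 at 16 of the 17 genes, by a median of 0.40 on the log2 scale with an SD of 0.32 over genes. The same difference over all conservative summits is not given here, and no scaling between the replicates is stated. The difference can therefore not be read as particular to snRNA genes. Of the 17 genes, 9 were in the thresholded lists of both replicates, 3 (F54C8.8, Y9C9A.111 and sup-6) in that of replicate 2 alone, and 5 (F54C8.10, K09B11.16, T08B6.62, T27E4.11 and F08G2.10) in neither. In the full ranked lists, which hold 80932 and 75072 peaks and include weak ones, 56 genes had a summit within 200 bp in replicate 1, where 46.9% of all nuclear genes did, and 57 in replicate 2, where 37.5% did. Both lists had one for 47 genes and neither for 33. The U6-type genes had a ranked summit in 17 and 18 of 24 cases, the U2-type genes in 13 and 16 of 19 and the U1-type genes in 10 and 9 of 13. The median ranked signal was 52.5 and 79.4 at U6-type genes, 39.9 and 63.9 at U1-type genes and 22.0 and 29.9 at U2-type genes in replicates 1 and 2.

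**Figure D3:**
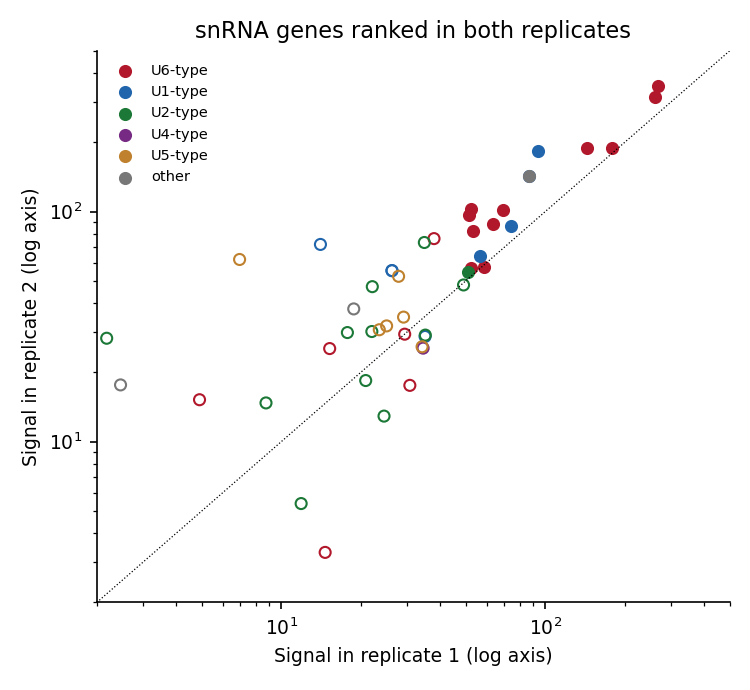
Signal at the nearest ranked summit within 200 bp in replicate 1 against replicate 2 for the 47 snRNA genes ranked in both, on log axes, coloured by family. Filled points had a conservative summit, the dotted line marks equal values, and mir-1831 covers the point of sup-39, whose summit it shares. At 16 of the 17 filled points the value in replicate 2 was higher.

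Summits at U6-type genes lay inside the gene near its start. The 11 conservative summits stood between +7 (F54C8.8) and +34 (W05B2.8) from the first base of the gene, with a median of +15, and all 11 were inside the gene. In the replicates' own ranked lists the summits at these genes ranged from -5 to +85 in replicate 1 and from -13 to +105 in replicate 2, with medians of +16 and +28, and the positions in the replicates differed by a median of 25 bp and by up to 107 bp (K09B11.16). At U1-type genes the conservative summits stood at +38 (H27M09.6), +123 (sup-6), +132 (sup-39) and +158 (T27E4.11), so that all 4 lay beyond every conservative U6-type summit, although the ranges overlapped in each replicate's own list. In replicate 2 the summit of sup-6 was at +62 and that of H27M09.6 at +91, and in replicate 1 they were at +119 and +38. The summit of F08G2.10 was at +192, beyond the end of the gene, and at +192 and +191 in the replicates. None of these summits lay upstream of the member's start, but only the conservative summit nearest to each gene was kept. Measured to the 5′ end, the 17 genes had a median position of +20 and a median signal of 158.4, against +22 and 165.1. At least 1 member thus had a further, weaker conservative summit nearer its 5′ end, whose position is not given here. Differences of under 107 bp between single summits are within what the replicates themselves showed.

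**Figure D4:**
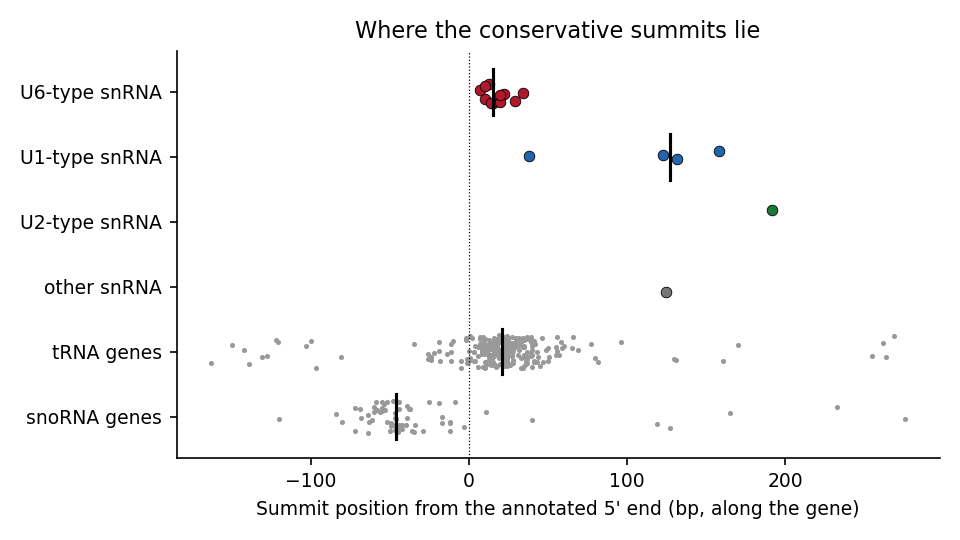
Position of conservative summits (bp from the annotated 5′ end along the gene) at snRNA genes by family, with tRNA and snoRNA genes beside them. Each point is a gene and the vertical line a median, given where a class has more than 1 gene. U6-type summits lie between +7 and +34, U1-type summits between +38 and +158, and the medians are +21 for tRNA and -46 for snoRNA genes.

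Beside the other classes of small RNA genes, U6-type genes had a share with a summit (45.8%, 27.9 to 64.9%) close to that of the 612 tRNA genes (46.1%, 42.2 to 50.04%). The U6-type interval is wide and also overlaps that of the spliced leader genes given below. Genes of tRNAs are also transcribed by RNA polymerase III, and whether the polymerase has a part in these shares was not tested. The summits of tRNA genes stood at a median of +21, with the middle 50% of genes between +11 and +33. The 346 snoRNA genes had a summit in 18.8% of cases (15.02 to 23.2%), at a median of -46, and the 30 spliced leader genes in 23.3% (11.8 to 40.9%), at +30. The deposited signal had a median of 165 at U6-type genes, 341 at tRNA genes, 498 at snoRNA genes and 252.5 at spliced leader genes. Without the U6-type genes, 6 of 75 snRNA genes (8.0%, 3.72 to 16.4%) had a summit. When mir-1831, which has no summit but that of sup-39, is left out as well, 5 of 74 did (6.76%, 2.92 to 14.9%), an interval that holds the 3.62% of all nuclear genes. The 74 include SmY genes and genes in no group. For U1, U2, U4 and U5-type genes alone it was 5 of 49 (10.2%, 4.44 to 21.8%). That interval lies above 3.62%, a share that piRNA genes lower, but it holds the 4.45% of protein-coding genes. Of these 5 genes, 4 were U1-type. These values are set side by side without a test, since genes of a class share sequence and are not replicates.

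**Figure D5:**
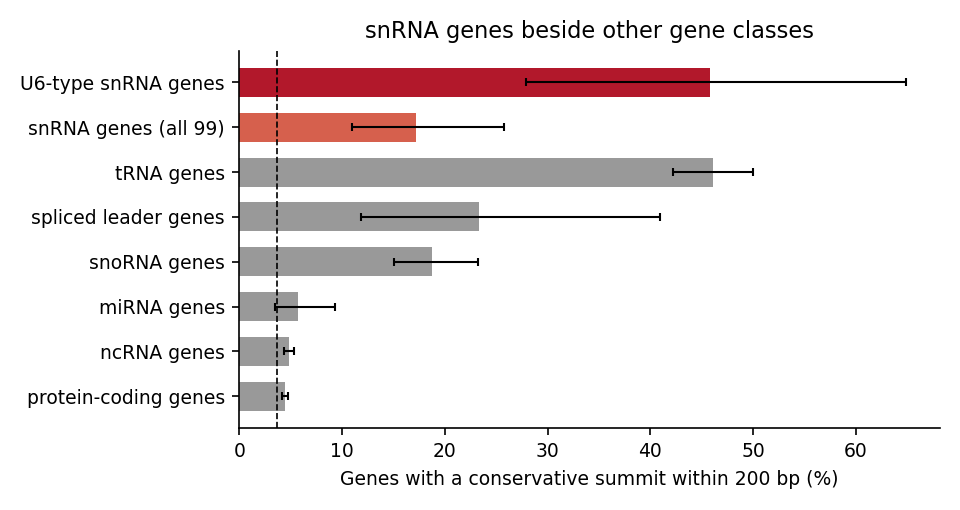
Share of genes (%) with a conservative summit within 200 bp, by gene class, with 95% Wilson intervals and the share of all nuclear genes, 3.62%, as the dashed line. U6-type genes at 45.8% stand beside tRNA genes at 46.1%, and protein-coding genes are at 4.45%.

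By chromosome, 1 of 12 members on I (H27M09.6), 4 of 13 on II, 7 of 7 on III, 3 of 36 on IV, 2 of 28 on V and 0 of 3 on X had a summit. With only the nearest summit counted for each gene, the 17 genes had 16 distinct summits. The summit of sup-39 was shared with mir-1831, and each of the other 15 belonged to 1 member. By annotated biotype, which counts mir-1831 as an snRNA, no tRNA, snoRNA, microRNA or ribosomal RNA gene lay within 200 bp of any of the 16, and no spliced leader gene did, the nearest being 1715 bp away at K09C6.12, and no 5′ end of a protein-coding gene did. A protein-coding gene covered 12 of the 16 summits, among them the introns of mpc-1 at R07E5.16 and of dhc-4 at W05B2.8, and 7 summits had an annotated ncRNA or piRNA gene within 200 bp. Of the 24 U6-type genes 20 are intronic, 3 intergenic and 1, K09C6.12, overlaps an exon, and 9, 1 and 1 of these had a summit. The strongest peaks lay at chrIII:10989552-10990143 (W05B2.8) and chrIII:4426821-4427090 (C28A5.7).

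Words shared by the members' promoters, from 250 bp before to 50 bp after the start, were counted on both strands in 97 distinct sequences. The most shared word of 8 bp was AGAACATA, in 26 of 97 (26.8%) against 1.3% of other nuclear genes, a word of the U6-type RNA itself. In the 250 bp before the start alone, CGGAACCC led with 25 of 97 (25.8%) against 0.284%. GCGGAACC, which overlaps it, was equally frequent. In those 250 bp CGGAACCC was on the gene's strand at 8 U1-type genes between -74 and -59, at 6 U5-type genes between -61 and -59, at 5 SmY genes between -62 and -56, at 5 U6-type genes at -70 and at 2 U4-type genes at -62, and at no U2-type gene. The overlapping T27E4.22 (-74) and T27E4.12 (-59) hold the same site, counted for each. In the whole window CGGAACCC was present at 5 of the 17 genes with a conservative summit (29.4%) and at 21 of the 82 without (25.6%). The forkhead core GTAAACA was present in 2 of 99 windows (2.02%), against 4.7% of other genes, and in none of the 17 with a summit. TATAAA (31.3% against 37.4%), GAGAGA (15.2% against 17.5%) and GGTTCGA, the core of the tRNA B box (3.03% against 2.29%), were within 7 percentage points of the other genes.

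Protein genes that make snRNAs or bind them were examined in promoters that began 1000 bp before a 5′ end and ended 200 bp after it. Of 65 such genes 7 (10.8%) had a conservative summit there, against 4.08% of all protein-coding genes. In the Integrator complex, which cuts the ends of snRNAs made by RNA polymerase II, 2 of 11 genes did: ints-8, with 81.8 in replicate 1 and 96.2 in replicate 2, and ints-4, with 57.99 and 72.5. Of 14 Sm and Lsm genes, whose proteins form rings on snRNAs, 3 did: snr-1 with 161 and 273, lsm-3 with 69.01 and 123, and snr-2 with 77.3 and 114. Of 22 genes of snRNP and splicing proteins 2 did: prp-19, which encodes a ubiquitin ligase of the spliceosome, with 233 and 208, and prp-40, named for a U1 snRNP protein of yeast, with 46.0 and 67.6. None of the 9 genes of SNAPc and basal factors, the 4 named for RNA polymerase III subunits or the 5 of snRNA maturation had one. In 6 of these 7 genes the value was higher in replicate 2, and no small RNA gene lay within 200 bp of these summits. The summits stood between -965 (lsm-3) and -18 (ints-4) from a 5′ end. In promoters that began 500 bp before a 5′ end, 5 of the 65 genes had a summit. The share of all protein-coding genes was not counted for that window, so this count has no background to be read against.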

How the data were processed

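The files used were peak lists from 2 biological replicates, in the narrow peak layout. The submitters' file lists name ce11 as assembly and 1 further file shared by all lists; which aligner and peak caller were used, and the read depth, are not stated there. The authors deposited for each peak a signal, whose scaling between lists is not stated, and a score, the IDR on a scale of whole numbers. The ranked lists as deposited add a global IDR, as its -log10. Its lowest value in the conservative list was 2.001, so the threshold was 0.01. The summit is a deposited offset from the peak start.

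Summits within 200 bp of a stronger one were merged in thresholded lists, and a gene counted where a summit lay within 200 bp of its nearest base. Ranked lists were not merged, and the nearest summit gave each replicate's value. Genes came from Ensembl release 115, and all 99 members have the same coordinates in RefSeq. Families were linked by edit distance (edlib 1.3.9.post1). Counting was tested on simulated summits. Counts carry 95% Wilson intervals, which cover the counting of genes only. No significance test was made, since there is 1 group.

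The members, lists, families and TATATA were chosen with earlier results of these data known. Named genes were all members with a conservative summit, the strongest of each family and chromosome, up to 5 members without a thresholded summit and with the highest ranked signal, those 201 to 500 bp from a summit, those sharing a summit and up to 4 per protein list; others without a summit were named for their sequence after their values were seen. Alternatives were other lists, IDR values, windows, merging, each replicate alone, and subsets of members. The sequence of the U6-type RNA is not reported here.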

Additional observations from a re-analysis of the deposited data

How the results depend on the processing

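Of 87 alternatives over the counts and medians, 66 stayed within 1.5 times a count, or within the SD of a median between replicates. A global IDR of 0.01 removed no peak. It and the RefSeq models, which give all 99 members the same coordinates, could not move the values of members. The SD rests on 2 replicate medians, for the position +38 and +41, both away from the main median of +22. The count of 66 is thus no measure of robustness. At a global IDR of 0.001, 8 snRNA genes had a summit, against 2.04% of all nuclear genes (956), with 7 distinct summits, a median position of +24.5 and a median signal of 303; 5 were U6-type. The thresholded lists deposited for replicate 2 (without replicate 1) and for replicate 1 (without replicate 2) have inputs that are not spelled out. By these lists 13 and 9 snRNA genes had a summit, with 12 and 8 distinct summits. The median position was +38 and +19, and the median signal 143 and 86.8. Of the genes, 8 and 6 were U6-type, and all nuclear genes with a summit numbered 1418 (3.02%) and 1353 (2.89%). The protein genes with a promoter summit numbered 7 and 5 of 65, with no share of all protein-coding genes counted for these lists. Among the 67 members without an identical copy, 6 had a summit, with 5 distinct summits, a median position of +124 and a median signal of 199, and 1 of the 7 U6-type genes among them had one. Measured to the 5′ end, 1051 nuclear genes (2.24%) had a summit, and still 17 snRNA genes. Among the strongest 5000 peaks of each replicate, 21 and 29 snRNA genes had a summit, against 8.55% and 8.58% of nuclear genes. The most shared word of 7 bp was in 45 promoters, against 26 for 8 bp. The cause of these shifts was not tested, other than that stricter lists and subsets hold fewer peaks or genes. No paired analysis was possible because the design holds 1 group. Identity thresholds of 70% and 85% and the 250 bp window, and the alternatives for U6-type genes, were chosen after seeing the data. Subsets of members use the list and window of the main count, so the share of all nuclear genes beside them is 3.62%. The 6 genes without an identical copy include mir-1831, which has only the summit of sup-39. Read depth, which limits what a missing peak shows, was not analysed here.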
